A study of Mus musculus with 24 samples.

Results

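The neutrophil granule genes described here are 10 genes, taken by their symbols from the 55376 genes counted in 24 mouse bone marrow libraries. Of these, 4 are primary granule genes (Mpo, Elane, Prtn3 and Ctsg) and 6 are genes of later granules or of the neutrophil cytosol (Ngp, Ltf, Camp, Lcn2, S100a8 and S100a9). All 10 had an entry in each library, although Ctsg and Lcn2 had 0 counts in some. Neutrophils fill their granules in waves while they mature in the marrow. Myeloperoxidase and the serine proteases elastase, proteinase 3 and cathepsin G are made at the promyelocyte stage and packed into primary (azurophil) granules, whereas lactoferrin, cathelicidin, neutrophilic granule protein and lipocalin-2 are made later for secondary granules. S100a8 and S100a9 form calprotectin, which fills the cytosol of mature neutrophils and is not itself a granule protein. Transcripts of the primary group already appear in myeloid-primed progenitors, so that the balance of the groups is a marker of how far a population has moved along this lineage.

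The study compared hematopoietic stem cells (HSCs) and multipotent progenitors 3 (MPP3), a myeloid-biased progenitor, between wild-type (WT) mice and mice homozygous for TTPΔARE, spelled TTPdeltaARE or TPPdeltaARE in the labels. TTPΔARE lacks an AU-rich element of the 3′ end of Zfp36, the gene of the RNA-binding protein tristetraprolin (TTP), in every cell of the body, so that effects from other tissues cannot be told apart from effects within the sorted cells. The groups were young WT HSCs (Y-WT, n = 4), young TTPΔARE HSCs (Y-TTPΔARE, n = 4), middle-aged WT HSCs (M-WT, n = 5), middle-aged TTPΔARE HSCs (M-TTPΔARE, n = 3), young WT MPP3 (n = 4) and young TTPΔARE MPP3 (n = 4), all from untreated animals that were male littermates by the study's methods. HSCs were sorted as CD150+ cells. The study's own MPP3 comparison used fewer TTPΔARE libraries than are labelled, and which were left out is not given in the sources used here. All those labelled were used here, and values without each are given where a result turns on it. Nothing in the labels says that replicates came from separate mice, so p-values measure the spread between these samples, which may be technical. The middle-aged HSC, young HSC and MPP3 libraries carry separate runs of numbers in their titles, so age and cell type cannot be told apart from the set of libraries.

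Library totals ran from 24261371 to 39934554 counts (median 34817620.5). Zfp36, the gene that carries the deletion, was 1.96-fold higher in M-TTPΔARE than in M-WT HSCs and 3.47-fold higher in TTPΔARE than in WT MPP3, and its CPM in Y-TTPΔARE HSCs (83.3 to 113) lay above every Y-WT HSC library (33.1 to 72.6). Of 8 HSC markers, 7 were lower in MPP3 than in HSCs of young WT mice and none was higher, and of 6 MPP3 and granulocyte-monocyte progenitor markers 4 were higher and 1 was lower. Levels below are counts scaled to the library size (CPM, as edgeR defines it) by TMM factors over the 24 libraries, listed in the order of the replicate numbers. Fold changes come from edgeR's quasi-likelihood F test on the raw counts, with their standard error (SE) and with p adjusted over all genes tested. Calls required all of 3 limits, which were an average log2 CPM above 1.5, an adjusted p below 0.05 and a change of more than 1.2-fold. Tests of whether an effect differed between ages or cell types used no limit on the fold change. These are bulk samples, so fewer cells of a type and less RNA per cell cannot be told apart.

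Among the primary granule genes, Prtn3 and Elane lie next to each other on chromosome 10, on the same strand and 3072 bases apart, with no annotated gene between them. Their promoters are shown because these neighbours differed in where they were measured, and those of Mpo and Ctsg are shown beside them. Each sequence is the RefSeq window (GRCm38.p6) from 250 bases before to 50 bases after the start of the gene, read 5′ to 3′ on the strand of the gene. Capitals mark AGGAAG, the core bound by PU.1 and other ETS factors, AACGG, a Myb core, and GCAAT, a core bound by C/EBP factors, on either strand.
Prtn3, chr10:79879417-79879716, plus strand: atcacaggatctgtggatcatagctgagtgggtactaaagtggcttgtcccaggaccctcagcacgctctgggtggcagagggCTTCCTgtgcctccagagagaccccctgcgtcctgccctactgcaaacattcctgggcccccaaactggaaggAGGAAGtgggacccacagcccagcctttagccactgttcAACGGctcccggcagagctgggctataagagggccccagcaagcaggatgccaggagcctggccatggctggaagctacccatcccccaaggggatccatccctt
Elane, chr10:79886062-79886361, plus strand: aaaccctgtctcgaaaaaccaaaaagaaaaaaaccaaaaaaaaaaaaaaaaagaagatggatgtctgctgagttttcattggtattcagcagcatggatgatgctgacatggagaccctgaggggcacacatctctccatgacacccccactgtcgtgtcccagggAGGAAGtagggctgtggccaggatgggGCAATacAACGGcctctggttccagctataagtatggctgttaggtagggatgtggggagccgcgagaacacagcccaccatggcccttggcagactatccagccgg
Mpo, chr11:87793534-87793833, plus strand: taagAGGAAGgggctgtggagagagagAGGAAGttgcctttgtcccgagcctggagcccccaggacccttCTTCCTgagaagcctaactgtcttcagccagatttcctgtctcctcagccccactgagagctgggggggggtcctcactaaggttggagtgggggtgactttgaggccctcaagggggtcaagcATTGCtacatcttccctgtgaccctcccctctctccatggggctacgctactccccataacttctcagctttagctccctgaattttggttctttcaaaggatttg
Ctsg, chr14:56102525-56102824, minus strand: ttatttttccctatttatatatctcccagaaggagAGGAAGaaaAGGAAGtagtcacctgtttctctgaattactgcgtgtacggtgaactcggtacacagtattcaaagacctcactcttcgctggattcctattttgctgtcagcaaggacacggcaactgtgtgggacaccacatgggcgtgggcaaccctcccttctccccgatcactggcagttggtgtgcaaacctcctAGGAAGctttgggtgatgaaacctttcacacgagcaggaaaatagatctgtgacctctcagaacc

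All 4 primary promoters held AGGAAG, and so did 4 of the 6 later ones and 35.4% of 32851 mouse promoter windows of this length. AACGG was found in Prtn3 and Elane and in none of the other 8 members, against 17.4% of all windows. In both it followed AGGAAG on the plus strand, with AGGAAG starting 94 bases and AACGG 55 bases before the gene start in Prtn3, and 84 and 50 bases before it in Elane. A TATAA followed at 32 bases before the start in Prtn3 and at 31 in Elane, a motif in 24.9% of all windows. GCAAT was in the windows of Mpo and Elane and in those of all 6 later genes, against 26.4% of all windows. These motifs were picked after the sequences had been seen, and a match describes the letters only.

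Of the later genes, Camp (cathelicidin, chr9:109847379-109849617, minus strand), Ngp (neutrophilic granule protein, chr9:110419747-110423012, plus strand) and Ltf (lactoferrin, chr9:111019271-111042767, plus strand) lie on chromosome 9, with 22 genes between Camp and Ngp and 29 between Ngp and Ltf. S100a8 (chr3:90668978-90670035, plus strand) and S100a9 (chr3:90692632-90695721, minus strand) are neighbours 22596 bases apart, with no annotated gene between them. Lcn2 (lipocalin-2, which binds bacterial siderophores) is at chr2:32384633-32388252 on the minus strand.

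In HSCs, proteinase 3 was the primary granule transcript that was abundant. The 4 Y-WT libraries had 114, 129, 107 and 106 CPM of Prtn3, and those of Y-TTPΔARE had 110.3, 90.3, 136 and 125. In M-WT HSCs it was at 239.8, 225, 261, 195 and 202 CPM, and in M-TTPΔARE HSCs at 167, 172 and 167. The young groups overlapped, and all middle-aged libraries lay above all young ones. Elane, the gene of neutrophil elastase, lay between 0.0301 and 1.70 CPM in the same 16 libraries. Ctsg had between 0 and 16 counts there. Mpo reached 5.69 CPM at most in young HSCs and 1.17 CPM at most in middle-aged HSCs. Prtn3 thus made up 94.2 to 99.6% of the summed primary CPM in each HSC library, and on a scale of CPM per kilobase of exon it was the highest of the 10 genes in all 4 HSC groups.

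The Prtn3 count needs its annotation beside it. The gene spans chr10:79874476-79883174 in GENCODE M21 (GRCm38) with 6 annotated transcripts. The 5-exon coding transcript starts at position 79879614, while a non-coding transcript starts 5138 bases upstream and overlaps the 5′ end of Plppr3, a gene on the opposite strand. The genes share 159 exonic bases, or 9.18% of the exonic bases of Prtn3. Plppr3 itself had 145 to 207 CPM of the library total in Y-WT HSCs and 162 to 181 in Y-TTPΔARE HSCs. In M-WT HSCs it had 201 to 259, and in M-TTPΔARE HSCs 184 to 187. In MPP3 it had 230 to 321 in WT and 207 to 294 in TTPΔARE. Its M-TTPΔARE values thus lay below all M-WT values, as those of Prtn3 did. On this scale its M-WT and Y-WT ranges overlapped, through replicate 2 of Y-WT (207) and replicate 4 of M-WT (201). These values lack the TMM scaling applied to Prtn3. The TMM factor was higher in that Y-WT library than in that M-WT library. The overlap therefore does not set Plppr3 apart from Prtn3, and whether Plppr3 differs with age on the TMM scale was not tested. How far reads of Plppr3 enter the Prtn3 count was not tested. The values are counts per gene, so they do not show which Prtn3 transcript was present in HSCs.

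**Figure D1:**
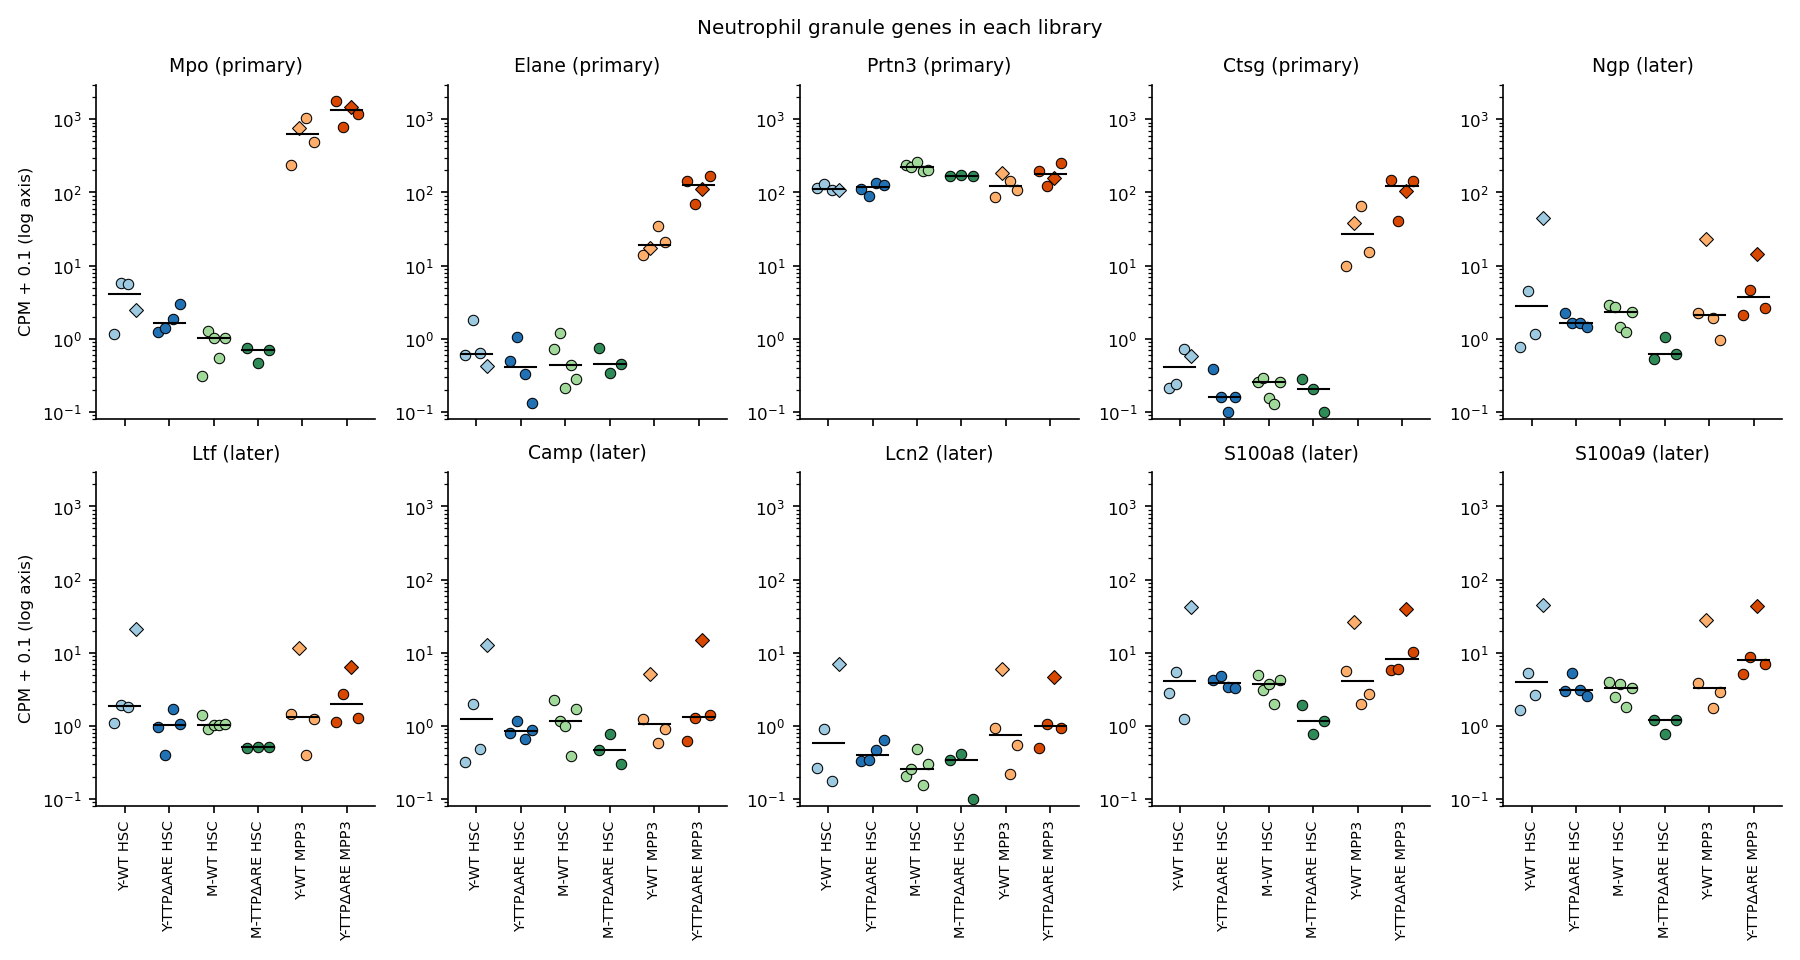
Level of each of the 10 genes in every library, as CPM plus 0.1 on a log axis. Each point is a library, the line is the median of its group, and diamonds mark the 3 libraries in which all 6 later genes were highest for their group. Prtn3 lies near 100 CPM or above in all 6 groups, whereas Mpo, Elane and Ctsg are high in the MPP3 groups only.

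The step from HSC to MPP3 separated Prtn3 from the rest of its group. In WT MPP3, Mpo had 238, 769.6, 1049 and 495 CPM and was 7.52 ± 0.70 higher on the log2 scale than in Y-WT HSCs (SE, edgeR adjusted p = 0.000101). Ctsg had 9.76, 38.5, 64.9 and 15.2 CPM in WT MPP3, a log2 fold change of 6.66 ± 0.79 (SE, edgeR adjusted p = 0.000366). Elane had 14.0, 17.4, 34.2 and 21.1 CPM, a log2 fold change of 4.88 ± 0.51 (SE, edgeR adjusted p = 0.000197). For these 3 genes every WT MPP3 library lay above every Y-WT HSC library. Prtn3 had 85.8, 184, 141 and 106 CPM in WT MPP3, which overlapped the HSC values, and its log2 fold change was 0.20 ± 0.20 (SE, edgeR adjusted p = 0.466). Its share of the summed primary CPM was 10.9 to 24.7% in WT MPP3. Per kilobase of exon, the mean levels in WT MPP3 were 186 CPM for Mpo, 74.6 for Prtn3, 31.1 for Ctsg and 22.0 for Elane, so Mpo took the first rank that Prtn3 held in HSCs. Of the 10 members, 3 were thus called higher and none lower, where 14.5% of the 22816 genes tested were called higher and 7.69% lower.

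None of the 6 later genes was called between WT MPP3 and Y-WT HSCs, and their log2 fold changes lay between -1.04 for Camp and -0.16 for Lcn2, with SEs between 1.125 and 1.39. Without replicate 4 of Y-WT HSC all 6 were positive, between 1.14 for Camp and 2.33 for Lcn2. Without replicate 2 of WT MPP3 all 6 were negative, between -2.86 for Ngp and -1.86 for S100a8, and without both libraries they lay between -0.66 for Ltf and 0.48 for Lcn2. None was called in any of these fits. Of 9 other primary granule genes, 8 were tested and 4 were called higher in MPP3, namely Ms4a3, a membrane protein of granulocyte-monocyte progenitors, at 2.45 ± 0.44, Serpinb1a, an inhibitor of neutrophil serine proteases, at 2.28 ± 0.23, Prss57, a further granule serine protease, at 1.97 ± 0.13, and Gusb at 0.46 ± 0.12 on the log2 scale (SE). Cd63, a granule membrane protein that many cells make, was lower at -0.59 ± 0.13. The median log2 fold change of the 8 was 0.31, beside -0.16 over all genes tested.

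Of 19 other genes of later granules, 16 were tested against HSCs, 2 were called higher in WT MPP3 and 1 lower. The integrin subunit Itgam was at 2.03 ± 0.33 and the peptidoglycan-binding protein Pglyrp1 at 0.69 ± 0.20 on the log2 scale (SE). Lrg1, a secreted glycoprotein, was at 85.8 CPM in Y-WT HSCs (mean, n = 4) and 0.0311 CPM in WT MPP3 and was called lower. Among 9 transcription factors of the granulocytic lineage, 5 were called higher in MPP3, with Cebpa, which drives the entry into the granulocytic lineage, at 3.48 ± 0.40, Irf8 at 1.119 ± 0.33, Gfi1 at 0.87 ± 0.22, Spi1, the gene of PU.1, at 0.79 ± 0.09 and Myb at 0.46 ± 0.11 on the log2 scale (SE).

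In MPP3, Elane was called higher in TTPΔARE, and no other member was called. Elane had 145, 70.1, 112 and 168 CPM in TTPΔARE MPP3, against 14.0 to 34.2 in WT. Each TTPΔARE library lay above each WT library, and the difference was 5.79-fold, 2.53 ± 0.34 on the log2 scale (SE, edgeR adjusted p = 0.00363). It was called with each of the 8 libraries left out in turn (2.34 to 2.88, edgeR adjusted p 0.00224 to 0.0202, and 2.34 to 2.73 without 1 of the TTPΔARE libraries) and under each of 10 other settings (adjusted p at most 0.0479, with 2 of the MPP3 libraries described below left out together). So 1 of the 10 members was called, and it was higher, where 1.71% of the 19023 genes tested were called and 1.58% were called higher. Non-overlap with all TTPΔARE libraries higher held for Elane alone of the 10 members and for 4.22% of all genes tested.

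The other primary genes had higher means in TTPΔARE MPP3 with overlapping groups. Ctsg, the gene of cathepsin G, had 149, 40.1, 105 and 143 CPM, beside 9.76 to 64.9 in WT, a log2 fold change of 1.78 ± 0.59 (SE, edgeR adjusted p = 0.238). Mpo had 1786, 786, 1498 and 1180.05 CPM, beside 238 to 1049 in WT, a log2 fold change of 1.07 ± 0.41 (SE, edgeR adjusted p = 0.332). Prtn3 had 195, 123, 159.5 and 252 CPM, beside 85.8 to 184 in WT, a log2 fold change of 0.53 ± 0.26 (SE, edgeR adjusted p = 0.456). In all 3, replicate 2 of TTPΔARE was the lowest of its group and fell inside the WT range, and the other 3 TTPΔARE libraries lay above all WT libraries for Mpo and Ctsg but not for Prtn3. Because Elane moved by more than its neighbour, the ratio of Prtn3 to Elane CPM in a library was 4.13 to 10.6 in WT MPP3 and 1.35 to 1.75 in TTPΔARE MPP3.

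**Figure D2:**
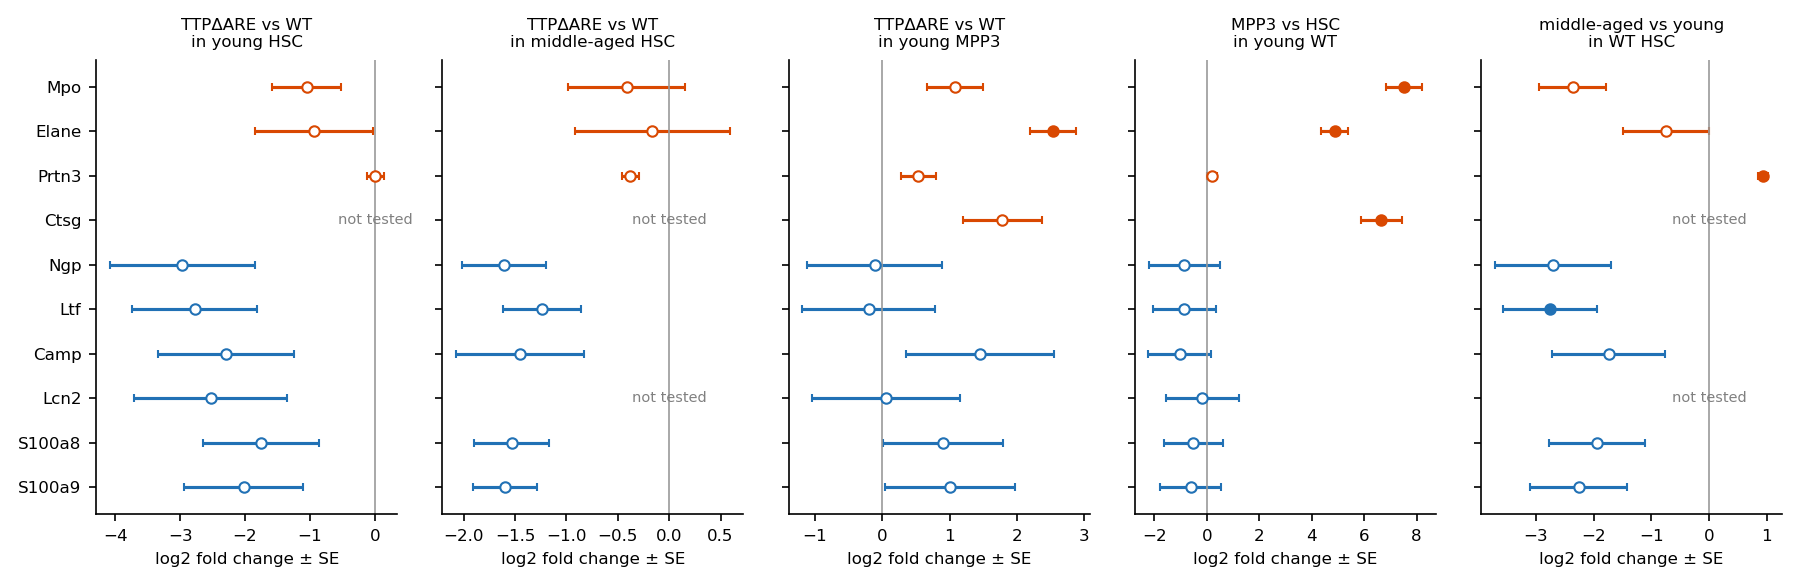
Log2 fold change of the 10 members in 5 comparisons, with bars of 1 SE, primary genes in orange and later genes in blue. Filled points were called, and those are Elane in MPP3 by genotype, Mpo, Elane and Ctsg in MPP3 against HSCs, and Prtn3 and Ltf in middle-aged against young WT HSCs.

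The test of whether the effect of TTPΔARE differed between MPP3 and young HSCs gave a log2 difference of 3.35 ± 0.83 for Elane (SE, edgeR adjusted p = 0.0998), 3.35 ± 1.19 for Ctsg (adjusted p = 0.291) and 1.97 ± 0.68 for Mpo (adjusted p = 0.279). None of the 10 members was called there, where 0.429% of 26337 genes were. For Elane, DESeq2, edgeR's likelihood ratio test and the fit without a filter on low counts did pass, with adjusted p of 0.0204, 0.0125 and 0.0297. In young HSCs the Elane counts behind this difference were 11 to 49 in Y-WT and 1 to 32 in Y-TTPΔARE.

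Of the 9 other primary granule genes none was called in MPP3 by genotype, and 7 of the 8 tested had positive log2 fold changes (median 0.24, beside 0.04 over all genes tested). Of the 19 other later granule genes, 12 were tested and 2 were called higher in TTPΔARE MPP3. They were Adam8, a membrane metalloprotease of neutrophils, at 4.20 ± 0.46, and Itgb2, the common subunit of the leukocyte integrins, at 1.03 ± 0.13 on the log2 scale (SE). Of the 9 transcription factors, Irf8, which directs progenitors to monocytes and away from neutrophils, was called higher at 3.25 ± 0.34 (SE). The summed CPM of 7 monocyte markers was 331 to 753 in TTPΔARE MPP3 and 96.2 to 351 in WT, and that of 8 mature neutrophil markers was 193 to 232 and 209 to 357. The neutrophil sum was mostly Csf3r, at -0.56 on the log2 scale, and 4 of the 5 neutrophil markers tested had positive log2 fold changes (median 0.53), none of them called. In the same comparison 3 of 6 MPP3 and granulocyte-monocyte progenitor markers, 2 of 7 monocyte, 2 of 8 erythroid, 1 of 6 T cell and 1 of 7 eosinophil and basophil markers were called higher and none lower. Summed CPM did not overlap for erythroid markers (52.3 to 186 in TTPΔARE, 12.1 to 31.9 in WT) or eosinophil and basophil markers (133 to 453, 42.1 to 77.4). Nor did it for T cell markers (58.3 to 73.5, 33.2 to 46.9). The sums of the progenitor, HSC and B cell markers overlapped. The part of these lists in the Elane result was not tested.

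The later genes in MPP3 turned on single libraries. Ngp had 2.16, 23.3, 1.84 and 0.845 CPM in WT and 2.02, 4.60, 14.4 and 2.52 in TTPΔARE MPP3. S100a8 had 5.47, 26.2, 1.90 and 2.65 CPM in WT and 5.73, 5.95, 39.4 and 9.998 in TTPΔARE. Replicate 2 of WT and replicate 3 of TTPΔARE were the highest of their groups for all 6 later genes. No later gene was called, and the log2 fold change of S100a8 was 0.90 ± 0.89 (SE, edgeR adjusted p = 0.721). It was -0.29 without TTPΔARE replicate 3 and 2.27 without WT replicate 2.

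The same held in young HSCs. Replicate 4 of Y-WT HSC had 44.4 CPM of Ngp, 20.9 of Ltf, 12.7 of Camp, 6.93 of Lcn2, 42.5 of S100a8 and 45.2 of S100a9. The other 3 Y-WT libraries had at most 4.34, 1.84, 1.87, 0.798, 5.28 and 5.10 CPM of these genes in the same order. Y-TTPΔARE HSCs had 1.32 to 2.12 CPM of Ngp, 0.299 to 1.61 of Ltf, 0.564 to 1.08 of Camp, 0.229 to 0.541 of Lcn2, 3.22 to 4.73 of S100a8 and 2.44 to 5.18 of S100a9. The Y-TTPΔARE values lay within the range of the 3 other Y-WT libraries for Ngp, Camp, Lcn2 and S100a8, while 3 Ltf values lay below it and 1 S100a9 value above it. Of the 10 members 9 were tested and none was called in young HSCs, where 0.0246% of 24381 genes were, 6 in all. That background ran from 0 to 12 genes with 1 library left out and from 0 to 304, the latter with DESeq2, under other settings. At an unadjusted p under 0.05, 2 members passed in edgeR's test, Ltf at -2.77 ± 0.96 (SE, adjusted p = 0.475) and Ngp at -2.96 ± 1.118 (adjusted p = 0.554). Of the 24381 genes tested, 1799 passed that limit.

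Without that library the log2 fold changes of the later genes between Y-TTPΔARE and Y-WT came closer to 0 or changed sign. Ngp went from -2.96 to -0.26, Ltf from -2.77 to -0.64, S100a8 from -1.75 to 0.39 and S100a9 from -2.02 to 0.19. Mpo, Elane and Prtn3 in young HSCs did not follow it. Replicate 4 of Y-WT had 2.37 CPM of Mpo, 0.326 of Elane and 106 of Prtn3, none of which was the highest of its group. Ctsg had 16 counts in it, as in replicate 3, and 4 counts in each of replicates 1 and 2. The log2 fold change of Prtn3 between Y-TTPΔARE and Y-WT was 0.00 ± 0.13 (SE, edgeR adjusted p = 0.992) and that of Mpo was -1.05 ± 0.53 (SE, edgeR adjusted p = 0.708).

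**Figure D3:**
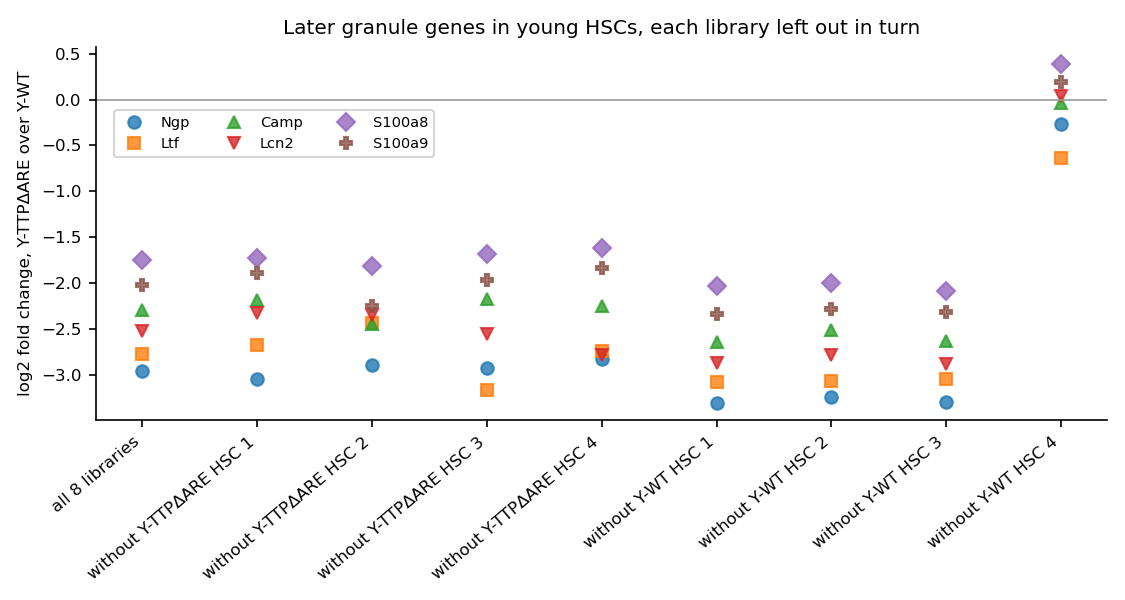
Log2 fold change of the 6 later genes between Y-TTPΔARE and Y-WT HSCs with all 8 libraries and with each left out in turn. All 6 are at or below -1.75 with all libraries, and without replicate 4 of Y-WT HSC they lie between -0.64 and 0.39.

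These 3 libraries, replicate 4 of Y-WT HSC, replicate 2 of WT MPP3 and replicate 3 of TTPΔARE MPP3, were above the other 21 for each of the 6 later genes, and were singled out after the values had been seen. S100a8 was 26.2 to 42.5 CPM in them and 0.681 to 9.998 elsewhere, and Lcn2 was 4.50 to 6.93 and 0 to 0.951. Among 8 mature neutrophil markers, Ly6g, the surface antigen that defines mouse neutrophils, was 0.450 to 0.947 CPM in these libraries and 0 to 0.120 in the other 21, at 0 counts in 12 of them. The other 7 markers did not separate the 3 libraries, and Stfa2l1 had 0 counts in all 3. Whether neutrophils in the sort account for the values was not tested.

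**Figure D4:**
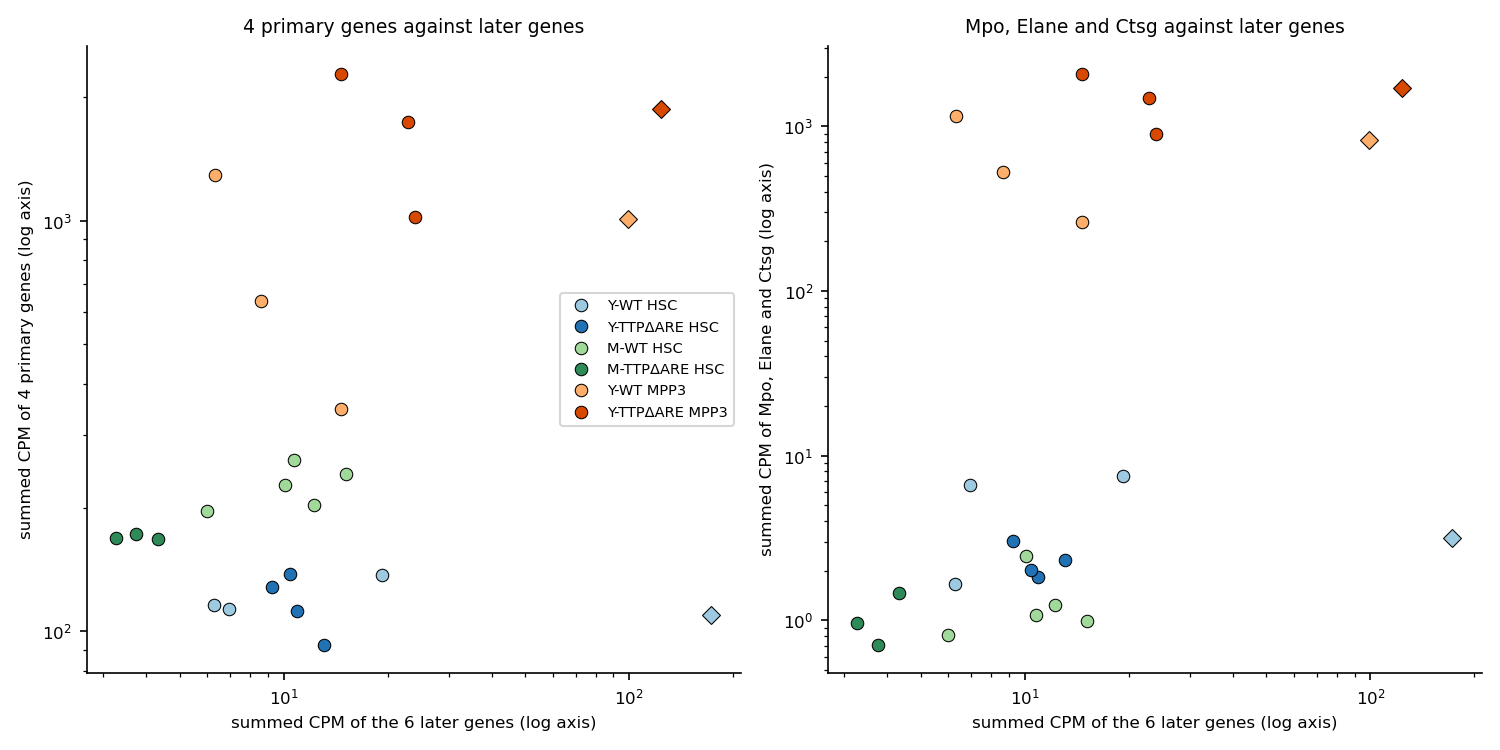
Summed CPM of the primary genes against that of the 6 later genes in each library, log axes, with Prtn3 (left) and without it (right). Diamonds mark the 3 libraries high in later genes, which lie to the right without being the highest of their groups in primary genes, and the MPP3 libraries lie above all HSC libraries.

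Across libraries the later genes varied together, and more weakly or not at all with the primary genes. Over the deviations of log2 CPM from group means in 24 libraries, Pearson's r lay between 0.77 and 0.94 for the 15 pairs of later genes (median 0.87) and between -0.38 and 0.25 for the 24 pairs of a primary with a later gene. Within the 16 HSC libraries Ctsg, at 0 to 16 counts, had r between 0.19 and 0.38 with the 6 later genes. Within the 8 MPP3 libraries Elane had r between -0.58 and -0.30 with the 6 later genes. Mpo, Prtn3 and Ctsg had r between -0.17 and 0.29 with them there. The 6 pairs of primary genes had r between 0.66 and 0.93 over the 8 MPP3 libraries and between -0.29 and 0.20 over the 16 HSC libraries. Points of a library share its depth and scaling, and these correlations are descriptions. They include the 3 libraries above that were highest in all 6 later genes, which may raise r between later genes. Values of r without these libraries were not computed. The log2 ratio of summed primary to summed later CPM was 4.21, 2.83, 4.03 and -0.66 in Y-WT, 2.82 to 3.79 in Y-TTPΔARE, 3.99 to 5.03 in M-WT and 5.28 to 5.68 in M-TTPΔARE HSCs. It was 3.34 to 7.68 in WT and 3.92 to 7.28 in TTPΔARE MPP3. In HSCs this ratio was set by Prtn3, and without Prtn3 it was below 0 in all 16 HSC libraries, at -5.77 to -0.065 in Y-WT, -2.58 to -1.62 in Y-TTPΔARE, -3.95 to -2.03 in M-WT and -2.40 to -1.57 in M-TTPΔARE. In MPP3 it stayed above 0 without Prtn3, at 3.05 to 7.51 in WT and 3.80 to 7.15 in TTPΔARE.

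Middle-aged HSCs held no such library, and there the later genes were lower in TTPΔARE without overlap for 4 of the 6. S100a8 had 4.91, 2.99, 3.58, 1.90 and 4.11 CPM in M-WT and 1.82, 0.681 and 1.04 in M-TTPΔARE. S100a9 had 3.93, 2.40, 3.64, 1.68 and 3.20 CPM in M-WT and 1.09, 0.681 and 1.10 in M-TTPΔARE. Ngp had 1.15 to 2.79 CPM in M-WT and 0.424 to 0.970 in M-TTPΔARE, and Ltf had 0.800 to 1.29 and 0.394 to 0.419. Every M-TTPΔARE library lay below every M-WT library for these 4 genes. Camp overlapped, at 0.280 to 2.12 and 0.203 to 0.681 CPM, and Lcn2 had 0 to 14 counts in the 8 libraries and was not tested.

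Of these, S100a9 had an adjusted p under 0.05, with a log2 fold change of -1.60 ± 0.31 (SE, edgeR adjusted p = 0.0301), but its average log2 CPM of 1.19 was below the limit for a call. S100a8 was at -1.53 ± 0.36 (SE, edgeR adjusted p = 0.0635), Ngp at -1.61 ± 0.41 (adjusted p = 0.0793) and Ltf at -1.24 ± 0.38 (adjusted p = 0.138). None of the 10 members was called between M-TTPΔARE and M-WT, where 1.41% of 21136 genes were, and 8 members were tested of which Prtn3 alone passed the limit on log2 CPM. At an unadjusted p under 0.05 in edgeR's test, 6 of the 8 members tested passed, as did 3385 of the 21136 genes tested. All 6 had lower means in M-TTPΔARE. The later genes varied together over the HSC libraries (r of 0.71 to 0.94), so counts of members here are not counts of independent observations. Prtn3, with every M-TTPΔARE library below every M-WT library, was at -0.38 ± 0.08 on the log2 scale (SE, edgeR adjusted p = 0.052). It passed with DESeq2 (adjusted p = 0.000527), without a filter on low counts (0.000173) and without replicate 4 or replicate 5 of M-WT (0.0300 and 0.0453). It did not pass with the other 6 libraries left out in turn (up to 0.168) or under 7 other settings, with adjusted p of 0.791 when all 24 libraries entered the fit. The adjusted p of S100a9 ran from 0.0153 to 0.112 with 1 library left out, was above 0.05 in 6 of these 8 fits, and was 0.788 when all 24 libraries entered. In all, 5 members had M-TTPΔARE wholly below M-WT, against 6.9% of all genes tested.

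Other granule genes in middle-aged HSCs were called in both directions. Of the 9 other primary genes Serpinb1a was lower at -0.75 ± 0.09 on the log2 scale (SE), and of the 19 other later genes Lrg1 was lower at -2.69 ± 0.57 and Pglyrp1 higher at 0.67 ± 0.11. Among the 9 transcription factors Gfi1, a repressor needed for neutrophil maturation, was higher at 0.61 ± 0.09 and Cebpd, which acts late in granulocyte maturation, was lower at -0.82 ± 0.15. In 8 neutrophil markers Csf3r, the receptor of the granulocyte growth factor G-CSF, was lower at -0.82 ± 0.12, and so was Cxcr4 at -0.54 ± 0.11. The summed CPM of the 8 was 155 to 218 in M-WT and 100 to 117 in M-TTPΔARE HSCs. Of the 8, 3 were tested, with 2 negative and 1 positive log2 fold changes. The summed CPM of the 6 MPP3 and granulocyte-monocyte progenitor markers was 267 to 311 and 184 to 223, with 1 of them, Cd34, called lower. The part of either list in the member values was not tested. Ly6g was at 0 counts in 4 of the 5 M-WT and 2 of the 3 M-TTPΔARE libraries.

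With age, Prtn3 rose in WT HSCs. All 5 M-WT libraries (195 to 261 CPM) lay above all 4 Y-WT libraries (106 to 129 CPM), and the difference was 1.91-fold, 0.93 ± 0.09 on the log2 scale (SE, edgeR adjusted p = 0.000189). It was called with each of the 9 libraries left out (0.88 to 1.00) and under each of 10 other settings (0.84 to 1.02). M-TTPΔARE HSCs, at 167 to 172 CPM, also lay above all young HSC libraries. The test of whether the effect of TTPΔARE on Prtn3 differed between ages gave a log2 difference of -0.43 ± 0.17 (SE, edgeR adjusted p = 0.286), and none of the 10 members was called there, where 0.0213% of 28189 genes were.

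Mpo went the other way with age. Its Y-WT HSC values were 1.04, 5.69, 5.48 and 2.37 CPM, its M-WT values were 0.207, 1.17, 0.909, 0.448 and 0.914 CPM, and the log2 fold change was -2.36 ± 0.57 (SE, edgeR adjusted p = 0.0176). The groups overlapped in replicate 1 of Y-WT, and the average log2 CPM of 1.11 kept Mpo below the limit for a call. Elane was at -0.74 ± 0.74 (SE, edgeR adjusted p = 0.499), and Ctsg, with 1 to 7 counts in M-WT and 4 to 16 in Y-WT, was not tested. Prtn3 was the member called higher with age and Ltf the member called lower, where 8.38% of 22280 genes were called higher and 3.69% lower.

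The size of the Ltf difference rested on replicate 4 of Y-WT HSC. Its log2 fold change with age was -2.75 ± 0.81 (SE, edgeR adjusted p = 0.0377), and -0.66 without that library (adjusted p = 0.234). The call was also lost without any 1 of the 5 M-WT libraries (adjusted p 0.0576 to 0.0833), at log2 fold changes of -2.68 to -2.87. S100a8 went from -1.94 to 0.17 and S100a9 from -2.26 to -0.10 when that library was left out. The other 3 Y-WT libraries had 0.990, 1.84 and 1.69 CPM of Ltf, beside 0.800 to 1.29 in M-WT.

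Of the 9 other primary granule genes, Serpinb1a at -0.90 ± 0.19 and Prss57 at -0.86 ± 0.16 on the log2 scale were lower in M-WT than in Y-WT HSCs, and Ctsc, the protease that activates the granule serine proteases, at 0.43 ± 0.10 and Cd63 at 0.37 ± 0.06 were higher. Lrg1 was the called one of the 19 other later genes, lower at -4.00 ± 0.54. Among the 9 transcription factors Spi1 was lower at -0.28 ± 0.06 and Runx1 higher at 0.34 ± 0.09, and Irf8 was lower at -0.92 ± 0.18 (SE). The summed CPM of the 8 mature neutrophil markers was 155 to 218 in M-WT and 109 to 141 in Y-WT HSCs, with Csf3r called higher. Of these markers 4 were tested, and 2 had positive and 2 negative log2 fold changes, with a median of -0.12. In M-WT 7 of 8 HSC markers and 3 of 8 erythroid markers were called higher, and 3 of 6 MPP3 and granulocyte-monocyte progenitor markers, 2 of 7 monocyte and 4 of 6 T cell markers were called lower. Their part in the member values was not tested.

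The 3′ ends of the members were searched for ATTTA, the pentamer at the core of the AU-rich elements that TTP binds. It was found in 3 of the 10 members, Ltf, Prtn3 and Ctsg, against 64.7% of 20981 mouse genes with a 3′ UTR (GENCODE M21). The 3′ UTRs of the members, at 56 to 603 bases, are shorter than the median of 937, and of genes with fewer than 300 bases of 3′ UTR 20.1% hold the pentamer. The sites are shown because they are the members' only matches, with ATTTA in capitals and merged where copies overlap.
Ltf, bases 566 to 578 of a 3′ UTR of 585: aaaattaaATTTATTTATTTAcatccca
Prtn3, bases 191 to 195 of 198: tgagacatATTTAaaa
Ctsg, bases 48 to 52 of 78: acattttcATTTAttaaatat

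The Ltf site holds 3 overlapping copies 7 bases before the end of the transcript, and Ltf was the member with TATTTAT, which 27.4% of all genes hold. Elane, the member called by genotype, has no ATTTA in its 98 bases of 3′ UTR, and neither do Mpo, Ngp, Camp, Lcn2, S100a8 and S100a9.

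By their pattern over the 24 libraries, genes most like the mean log2 CPM of the 4 primary members included Gm11505 (Pearson's r = 0.98), H2afy (0.97), Bin1 (0.97) and Gm47071 (0.97), among 13036 genes. Gm11505 is an antisense gene inside Mpo that shares 512 exonic bases with it, 15.0% of the exonic bases of Mpo, and had 2910 to 12873 counts in WT MPP3 and 0 to 39 in HSCs. How the counting treated strand is not given in the sources used here, so reads of the pair cannot be told apart. For the 6 later members the closest gene was Sh3tc1 at r = 0.64. Since HSC and MPP3 libraries form separate clusters, these values describe the likeness and test nothing.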

How the data were processed

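RNA of sorted HSCs and MPP3 was sequenced in 24 libraries. The authors trimmed reads with cutadapt, aligned them to mm10 with STAR and deposited raw read counts per gene from featureCounts, 1 table a library. Labels and methods name different library kits, and how strand was counted is not given in the sources used here. No rows or columns of other samples were present (0 columns left unused). From the counts, TMM factors, CPM and fits were computed in R 4.3.3 with edgeR 4.0.16 (quasi-likelihood F test, filterByExpr with minimum counts of 10 and 15, Benjamini-Hochberg adjustment over all genes tested), 1 fit per comparison with the libraries of its groups. DESeq2 1.42.0, other scalings, other filters and each library left out were alternatives, and scripts were tested on simulated data. Leaving out the 3 libraries high in later granule genes together was chosen after seeing the data. The members, gene lists and comparisons were chosen with earlier results of these data known. Named genes were all members and, from the other lists, those that were called, at most 5 a list and comparison, and by likeness the 5 closest genes, of which 1 is not reported here. The same replicate numbers across groups were not taken to pair the libraries. Deviations did not correlate above 0.1 for every number in any comparison. They did correlate positively for every number in MPP3 against HSCs of young WT mice (r = 0.056, 0.15, 0.20 and 0.11). The same held in middle-aged HSCs by genotype (0.046, 0.15 and 0.022), while signs were mixed in the other comparisons checked. These values do not settle whether libraries were paired. Gene models were GENCODE M21, the release before that of the counting. Counts are reads without molecular identifiers, so their precision covers counting error only.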

Additional observations from a re-analysis of the deposited data

Results flagged for a closer look

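Dixon's test for outliers was applied to the CPM within groups of 4 or 5 libraries. In 17 of 50 gene and group combinations, the gap of the highest or lowest library to its neighbour exceeded the critical value. Chance gives about 1 in 20 for normally distributed values. The CPM were not log-transformed and the genes are not independent of each other, so that rate is a rough guide. Of the 17, 16 were the later genes of 3 libraries. Replicate 4 of Y-WT HSC stood apart with 44.4 CPM of Ngp, 20.9 of Ltf, 12.7 of Camp, 6.93 of Lcn2, 42.5 of S100a8 and 45.2 of S100a9. Replicate 2 of WT MPP3 stood apart with 23.3 CPM of Ngp, 11.4 of Ltf, 4.99 of Camp, 5.78 of Lcn2, 26.2 of S100a8 and 27.7 of S100a9. Replicate 3 of TTPΔARE MPP3 stood apart with 15.0 CPM of Camp, 4.50 of Lcn2, 39.4 of S100a8 and 44.0 of S100a9, and its Ngp and Ltf, at 14.4 and 6.30 CPM, were the highest of the group without passing the limit.

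Among the primary genes a single combination stood apart, which was Elane in replicate 2 of Y-WT HSC at 1.70 CPM, where the next library had 0.537 CPM.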

How the results depend on the processing

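Of 1283 values of 64 member log2 fold changes under the alternatives, 1184 kept their direction and call, 19 gained a call, 9 lost it and 71 changed sign, none of which was called. Elane in MPP3 by genotype, Mpo, Elane and Ctsg in MPP3 against HSCs, and Prtn3 with age were called throughout. The number of members called in middle-aged HSCs by genotype was 1 instead of 0 with DESeq2, without a filter on low counts or without the limit on log2 CPM. In MPP3 by genotype it was 2 instead of 1 without a filter, with Ctsg added. With age it was 1 instead of 2 with DESeq2, with the replicate block and with the 3 libraries high in later genes left out, and 4 with the likelihood ratio test or no filter. In the interaction of cell type and genotype it was 1 instead of 0 with DESeq2, the likelihood ratio test and no filter. With 1 library left out these counts ran from 0 to 1, 1 to 5 and 0 to 1 in middle-aged HSCs, with age and in the cell type interaction. DESeq2 gave no adjusted p for Ltf with age. Over all genes, the number called under the other settings ran from 53 to 842 in middle-aged HSCs by genotype, 174 to 1244 in MPP3 by genotype, 3923 to 5864 in MPP3 against HSCs, 1580 to 4053 with age, 1 to 161 in the age interaction and 52 to 333 in the cell type interaction.

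Prtn3 in young HSCs turned to -0.030 with upper quartile factors and -0.039 with library totals, and in MPP3 against HSCs to -0.016 with library totals. Lcn2 in MPP3 by genotype turned to -0.026 without a filter. The replicate number was also used as a block, although it is not known whether the numbers pair the libraries. With it, Prtn3 in young HSCs was -0.0077, and Ngp and Ltf in MPP3 by genotype were 0.56 and 0.21. Ngp, Camp, Lcn2, S100a8 and S100a9 in MPP3 against HSCs were 0.48, 0.36, 0.93, 0.34 and 0.0088. Camp, S100a8 and S100a9 in the age interaction were -0.10, -0.52 and -0.36.

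With the 3 libraries left out, Lcn2, S100a8 and S100a9 in young HSCs were 0.041, 0.39 and 0.19, Ngp and Ltf in MPP3 by genotype 0.87 and 0.80, Camp, Lcn2 and S100a8 in MPP3 against HSCs 0.017, 0.48 and 0.22, Camp and S100a8 with age 0.47 and 0.17, and Ngp, Ltf, Camp, S100a8 and S100a9 in the age interaction -1.37, -0.62, -1.44, -1.95 and -1.81.

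With 1 library left out at a time, the members that changed sign ranged over the following log2 values. In young HSCs by genotype these were -2.89 to 0.041 for Lcn2, -2.09 to 0.39 for S100a8, -2.34 to 0.19 for S100a9 and -0.087 to 0.16 for Prtn3. In middle-aged HSCs by genotype these were -0.67 to 0.41 for Elane. In MPP3 by genotype these were -1.26 to 1.93 for Lcn2, -1.17 to 1.93 for Ngp, -1.08 to 1.68 for Ltf, -0.86 to 2.59 for Camp, -0.29 to 2.27 for S100a8 and -0.34 to 2.67 for S100a9. In MPP3 against HSCs these were -2.86 to 1.77 for Ngp, -2.71 to 1.21 for Ltf, -2.15 to 1.14 for Camp, -2.004 to 2.33 for Lcn2, -1.86 to 1.56 for S100a8 and -2.24 to 1.52 for S100a9. With age these were -1.31 to 0.0061 for Elane, -2.11 to 0.47 for Camp and -2.32 to 0.17 for S100a8. In the age interaction these were -1.95 to 0.54 for S100a8, -0.045 to 1.54 for Elane, -1.37 to 1.68 for Ngp, -0.62 to 1.91 for Ltf, -1.44 to 1.16 for Camp and -1.81 to 0.71 for S100a9. In the cell type interaction these were -0.074 to 4.44 for Lcn2.

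The median log2 ratio of summed primary to later CPM moved, as a difference of mean log2 CPM, to 0.92 in Y-WT, 0.33 in Y-TTPΔARE, 0.20 in M-WT and 1.61 in M-TTPΔARE HSCs. Without S100a8 and S100a9 it was 4.98 in Y-TTPΔARE, 5.60 in M-WT and 6.88 in M-TTPΔARE HSCs and 7.49 in TTPΔARE MPP3, and without Mpo 3.48 in WT and 3.95 in TTPΔARE MPP3. The cause of these changes was not tested. Elane and Ctsg in HSCs and Lcn2 in middle-aged HSCs rest on few counts, which limits their precision.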

Other observations

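Of the 19 other later granule genes and 9 transcription factors, 3 differed in their response to TTPΔARE between MPP3 and young HSCs. The log2 difference was 3.78 ± 0.64 for Adam8, 7.43 ± 1.22 for Lrg1 and 2.96 ± 0.42 for Irf8 (SE), with edgeR adjusted p of 0.00979, 0.00846 and 0.00296. None of the 10 members passed that test. The value of Lrg1 depends on a level near 0 counts in WT MPP3 and is not a measure of size.

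Small counts were even more often than odd. Among counts of 1 to 40, even counts took 65.2 to 74.8% of genes in each library, and over the 24 libraries 25781 gene counts were 1 and 87378 were 2. The later members had even values in 83.9% of 143 counts above 0, and the primary members in 62.8% of 94. The libraries were sequenced in pairs of reads. The cause was not tested.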
